A study of Mus musculus with 6 samples.

Results

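The histone cluster genes are the 70 rows, of 40993 in the deposited gene table, whose symbol begins with Hist, a cluster number and the letter h. By symbol they code for 6 H1, 20 H2A, 19 H2B, 12 H3 and 13 H4 proteins or their pseudogenes. 56 of them bear the symbol of Hist1, the large cluster on chromosome 13. Another 10 bear that of Hist2 on chromosome 3, 3 that of Hist3 on chromosome 11 and 1 that of Hist4 on chromosome 6. The pseudogene Hist1h2al, at chr13:51202688-51203065, lies far from the other Hist1 rows. Membership rests on the symbol; the rows to describe were chosen from their values, as those above 0 FPKM in at least 3 of the 6 libraries, whichever the diet. 32 rows met that threshold, of which those called or highest in their type are given one by one and the others by counts; 18 were above 0 in 1 or 2 libraries, and 20 were listed at 0 in every library. FPKM, the unit of the table, is a fragment count scaled to transcript length and to the number of mapped fragments.

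The libraries came from whole kidneys of C57BL/6 mice aged 2 months, of which 3 samples had a standard and 3 an adenine-enriched diet. The labels give neither the sex of the mice nor the dose and length of the adenine feeding, and do not say whether each library is 1 mouse or a pool, so each p-value reflects sample-to-sample spread that may be partly technical. Excess adenine is a common way to injure the kidney in rodents, through a poorly soluble oxidation product that crystallises in the tubules. From the steps between low values, the libraries held between about 17.8 and 25.1 M fragments. Standard 2 stood apart: rows shorter than 300 bases carried 90.1% of its summed FPKM, against 11.2% to 26.3% in the other 5 libraries. The histone results are therefore also given without it. Kidney markers were present in every library, summing to 5078 to 5867 FPKM on standard and 4313 to 5674 on adenine diet.

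Cluster histone genes are the replication-dependent ones: they are switched on together in S phase, when new DNA has to be wrapped around new nucleosomes, each made of pairs of H2A, H2B, H3 and H4, with H1 binding the linker DNA. Their mRNAs are unusual in having no introns and no poly(A) tail. They end just after a conserved stem-loop, which is held by the stem-loop binding protein SLBP and cut by a complex that includes the U7 small nuclear ribonucleoprotein. Some cluster genes can also give longer, tailed mRNAs that reach a downstream poly(A) signal, in cells that are not dividing. Replacement histones such as H2A.Z and H3.3 come from genes outside the clusters and have ordinary tailed mRNAs.

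The stem-loops are shown first because they mark where these mRNAs are cut. The capitals mark the stem, loop and stem, matched by the histone stem-loop consensus (GG, 2 free bases, C, TTTT, 1 free base, AG, 2 free bases, CC) on the sense strand after the stop codon of GENCODE M21 transcripts (GRCm38); the 5 bases on each side are in lower case. The H1, H2A, H2B and H3 genes listed share one stem, and the H4 genes listed another:
Hist1h2bg: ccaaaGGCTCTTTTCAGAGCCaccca
Hist1h2be: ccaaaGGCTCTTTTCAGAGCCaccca
Hist1h1e: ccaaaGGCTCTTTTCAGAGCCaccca
Hist1h1c: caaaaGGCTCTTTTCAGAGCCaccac
Hist3h2a: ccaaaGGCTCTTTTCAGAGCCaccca
Hist2h3c2: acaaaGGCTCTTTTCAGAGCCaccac
Hist1h4i: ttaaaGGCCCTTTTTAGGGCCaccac
Hist1h4h: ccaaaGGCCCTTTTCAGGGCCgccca
Hist1h4c: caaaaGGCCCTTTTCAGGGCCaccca

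Of the 68 member genes with an M21 transcript, 42 held a match after the stop codon, 21 to 58 bases downstream of it (median 31.0). Among 55382 other genes, 47 held a match anywhere in a transcript, which is 0.0849%. Of the 26 genes with no match, 14 had annotated transcripts that stop within 5 bases of the stop codon, so that there was almost nothing after the stop codon to search. Hist1h2bc and Hist2h2be are different: their annotated transcripts run on, over 1156 and 2620 bases. They hold the poly(A) signal AATAAA after the stop codon and do not contain the stem-loop letters. Transcripts of this form are also annotated for Hist1h2bq, Hist1h2br and Hist1h4a, whose rows were much lower. The single M21 transcript of Hist1h2bc has 2 exons, so its annotated 3′ end lies beyond an intron.

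Many of the members also share letters upstream, though not all types do so alike. A window of the 250 bases before the RefSeq start (GRCm38.p6) was found for 58 of the 70 rows, and 3 motifs were searched on both strands. CCAAT, the CCAAT box, was in 47 of the 58 windows (81.0%) and in 33.9% of the 32851 windows of all genes. By type it was in every H1, H2A and H2B window, in 8 of 10 H3 and in 3 of 12 H4 windows. The H4 share, 25%, was below that of all genes. TATAAA, a core promoter element, was in 29 of the 58 against 12.4%. ATTTGCAT, the octamer bound by Oct1, was in 13 windows (22.4%) against 1.60%. In 7 of 14 H2A and 6 of 16 H2B windows it was present, and none of the H1, H3 and H4 windows held it. Windows of neighbours transcribed away from each other can overlap, as for Hist1h2ae and Hist1h2bg, so the same site can count for both genes. The windows with a motif are therefore not all separate sites. The 2 windows below are shown because they lie beside the H2B gene with the largest difference between diets (Hist1h2bg) and the most abundant one (Hist1h2bc), with matches on either strand in capitals and with bases in annotated exons left out. The first, at chr13:23571221-23571395 (+), lies between Hist1h2ae and Hist1h2bg, which are transcribed away from each other, and reads towards Hist1h2bg. The second, at chr13:23683960-23684198 (-), lies between Hist1h2bc and Hist1h2ac, also transcribed away from each other, and reads towards Hist1h2ac; Hist1h2bc had no entry of its own.
Hist1h2bg: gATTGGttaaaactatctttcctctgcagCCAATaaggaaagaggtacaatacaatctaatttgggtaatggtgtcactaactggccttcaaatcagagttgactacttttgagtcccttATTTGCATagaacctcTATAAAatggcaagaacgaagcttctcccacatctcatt
Hist1h2ac: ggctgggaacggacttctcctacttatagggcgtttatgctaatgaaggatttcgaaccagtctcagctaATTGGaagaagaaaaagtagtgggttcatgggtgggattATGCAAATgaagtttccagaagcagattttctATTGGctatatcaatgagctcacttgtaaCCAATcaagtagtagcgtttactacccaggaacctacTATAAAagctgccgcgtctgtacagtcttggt
A match describes the letters only; no binding was measured.

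On the adenine diet no tested cluster histone gene rose and 6 fell: 3 for H2B (Hist1h2bg, Hist1h2bc and Hist1h2be), 2 for H4 (Hist1h4i and Hist1h4h) and 1 for H1 (Hist1h1e), all in the Hist1 cluster. In RNA of a whole kidney, fewer cells of a type and less RNA per cell cannot be told apart. 14 of the 70 rows averaged 0.5 FPKM or more across libraries and could be tested; 8 of these were not called. The test was limma on log2(FPKM + 1), two-sided, with Benjamini-Hochberg adjustment over all 15431 rows tested and a threshold of 0.05. Of all rows tested, 6.84% were called lower and 29.7% higher. The median difference was -0.43 over the 14 histone rows and 0.25 over all rows, on the log2 scale; 12 of the 14 differences were negative. A scaling by the median of ratios, which sets each library on its typical gene, moved the median of all rows to -0.0042 and that of the histone rows to -0.63. Under it all 14 differences were negative, 7 rows were called lower and none higher, beside 15.2% and 16.8% of all rows. With the replicate number as a block 5 rows were called lower and none higher (7.34% and 31.3% of all rows), and after quantile normalization 9 and none (14.5% and 13.9%). A filter on the mean admits a row through the diet in which it is high, so these counts are a description and support nothing further.

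The count of 6 depended on single libraries, and only Hist1h2bg kept its call whichever library was left out. Without standard 1, standard 3 or adenine 1 the rows called lower numbered 3, and without adenine 2 there was 1. Without standard 2 or adenine 3 there were again 6. Over all 15431 rows tested, 1056 were called lower with every library kept. Without standard 1, standard 3, adenine 1 or adenine 2 that count was 403, 411, 609 or 220. Without standard 2 it was 350, and without adenine 3 it was 1598. Leaving out standard 2, the library rich in short rows, Hist1h4h was no longer called (adjusted p = 0.0960, limma) and Hist2h3c2 was (0.0455). In 7 of the 14 tested rows every adenine library was below every standard library, and in none was every adenine library above; over all rows tested these shares were 11.8% and 44.4%.

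**Figure D1:**
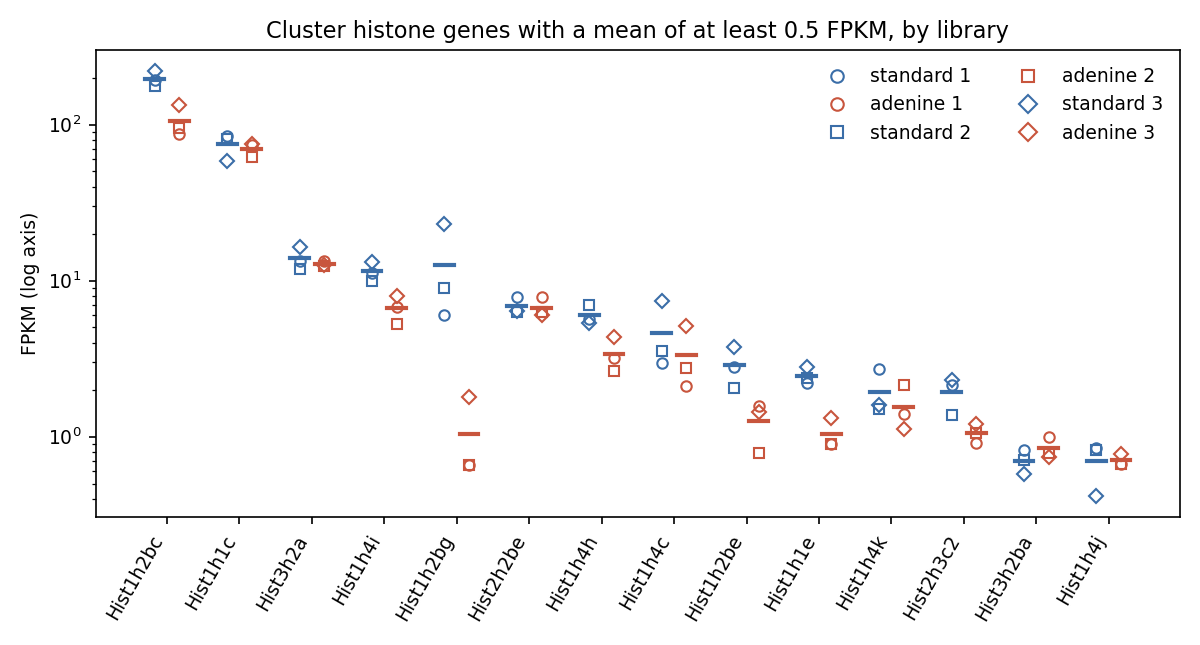
FPKM (log axis) of the 14 tested cluster histone genes in each of the 6 libraries, ordered by mean; symbols mark the library number, bars the mean of 3. Hist1h2bg shows the widest gap between diets, 12.6 against 1.04 FPKM, while Hist1h1c and Hist2h2be overlap fully.

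H2B held the largest part of the cluster histone signal and both the highest row and the row with the largest difference. Hist1h2bc (ENSMUSG00000018102, chr13:23684199-23692488, + strand) measured 192, 177 and 219 FPKM on standard diet and 87.2, 94.9 and 134 on adenine. The groups did not overlap. Its mean was 196 ± 21.2 (SD, n = 3) against 105 ± 25.01 FPKM, 1.86-fold lower on adenine, a log2 difference of -0.91 (SE 0.18, limma adjusted p = 0.0130). Leaving out adenine 2 gave -0.85 with an adjusted p of 0.0562.

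Hist1h2bg (ENSMUSG00000058385, chr13:23571408-23571884, + strand) is an intronless H2B gene whose deposited row ends 26 bases after the stem-loop. Its libraries read 6.04, 8.94 and 22.9 FPKM on standard diet and 0.661, 0.657 and 1.80 on adenine. Standard 3 stood above the other standard libraries, and the lowest standard library was still more than any adenine library. These values correspond to roughly 29.4, 36.5 and 94.6 fragments against 3.57, 3.64 and 7.24, so that the adenine level is known only coarsely. The mean of 12.6 ± 9.03 (SD, n = 3) fell to 1.04 ± 0.658 FPKM, 12.2-fold lower, with a log2 difference of -2.59 (SE 0.47, limma adjusted p = 0.0105). Of the 100-base windows of its M21 transcript, 44.9% are shared letter for letter with another gene, so reads may have been divided between copies.

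Hist1h2be (chr13:23583742-23621124, - strand, 2 exons) read 2.80, 2.04 and 3.74 FPKM against 1.57, 0.780 and 1.45. All adenine libraries lay below all standard ones, 2.86 ± 0.852 against 1.26 ± 0.424 FPKM (SD, n = 3), 2.26-fold lower with a log2 difference of -0.77 (SE 0.23, limma adjusted p = 0.0400). The call was lost without a filter on low values (0.0672) and without standard 1 (0.0994), standard 3 (0.112), adenine 1 (0.0564) or adenine 2 (0.122). Its row overlaps Gm11398 on the same strand, and reads of the 2 genes may not be separable.

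The other tested H2B genes did not pass. Hist2h2be (chr3:96221119-96223738), whose annotated mRNA lacks the stem-loop letters and holds a poly(A) signal, read 7.85, 6.31 and 6.42 FPKM against 7.86, 6.25 and 5.98. The libraries of both diets covered the same range, with a log2 difference of -0.03 (95% interval -0.38 to 0.31, limma adjusted p = 0.863). After quantile normalization it was called lower (-0.47, 0.0275). Hist3h2ba, from the small Hist3 cluster, averaged 0.700 FPKM against 0.841, a difference of 0.11 (-0.22 to 0.45) that became -0.016 under median-of-ratios scaling.

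H4 is coded by many genes for the same protein, and 2 of the 5 tested rows fell. Hist1h4i (ENSMUSG00000060639, chr13:22040636-22041362, - strand) read 11.2, 9.99 and 13.2 FPKM on standard diet and 6.73, 5.29 and 7.98 on adenine. No adenine library reached the lowest standard one, and the mean was 1.72-fold lower, 11.4 ± 1.61 against 6.67 ± 1.35 FPKM (SD, n = 3; log2 difference -0.71, SE 0.17, limma adjusted p = 0.0220). Without standard 1, standard 3, adenine 1 or adenine 2 the adjusted p was 0.0664, 0.0721, 0.0537 and 0.0722.

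Hist1h4h (chr13:23531050-23531522, + strand) read 5.64, 7.01 and 5.33 FPKM against 3.18, 2.63 and 4.34. The groups were again apart, with means of 5.99 ± 0.899 and 3.38 ± 0.874 FPKM (SD, n = 3), 1.77-fold lower, a log2 difference of -0.68 (SE 0.18, limma adjusted p = 0.0305). The call was not firm: with the replicate number as a block the adjusted p was 0.0545, without a filter 0.0555, and it ran from 0.0630 to 0.102 when any library but adenine 3 was left out.

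Hist1h4c (chr13:23698060-23698454) read 2.95, 3.56 and 7.36 FPKM against 2.11, 2.73 and 5.11. Replicate 3 was the highest in both diets, and the groups overlapped, with a log2 difference of -0.36 (SE 0.36, limma adjusted p = 0.444). The adenine library was the lower one in each pair of the same number; with the replicate block the adjusted p was 0.0670, and 0.0225 with the block and median-of-ratios scaling, where the row was called. Hist1h4k averaged 1.94 against 1.55 FPKM (difference -0.20, adjusted p = 0.492) and was called lower after quantile normalization (-0.70, 0.0461). Hist1h4j averaged 0.695 against 0.703 FPKM (0.02, adjusted p = 0.942), and its difference was -0.10 under median-of-ratios scaling.

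Among H1 genes, which code for linker histones, the most abundant row did not pass and a much lower one fell. Hist1h1c (ENSMUSG00000036181, chr13:23738808-23740367, + strand), the gene for H1.2, read 84.6, 80.6 and 58.7 FPKM on standard diet and 73.6, 61.6 and 74.7 on adenine. The ranges overlapped, and the log2 difference of -0.08 had a 95% interval of -0.46 to 0.30 (limma adjusted p = 0.707); it turned to 0.019 without standard 1. Its deposited row runs 840 bases past the stem-loop, and its transcript holds AATAAA in that stretch, 20 bases from the end.

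Hist1h1e (ENSMUSG00000051627, chr13:23621755-23622502, - strand), the gene for H1.4, read 2.21, 2.38 and 2.78 FPKM against 0.897, 0.890 and 1.32. The groups were well apart, 2.46 ± 0.292 against 1.04 ± 0.248 FPKM (SD, n = 3), 2.37-fold lower with a log2 difference of -0.77 (SE 0.15, limma adjusted p = 0.0131). About 21.5 to 24.8 fragments stood behind each standard value and 10.7 to 12.1 behind each adenine value; without adenine 2 the adjusted p was 0.0565. Hist1h1d, the gene for H1.3, was too low to test and read 0.429, 0.532 and 0.899 FPKM against 0.291, 0.290 and 0.0995. Hist1h1b, the gene for H1.5, was lower still, and read 0, 0.0984 and 0.0996 FPKM against 0.157, 0.385 and 0.308, the opposite order, on at most about 4.66 fragments a library.

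For H2A and H3 the table held 1 testable row each, and neither passed. Hist3h2a (ENSMUSG00000078851, chr11:58954685-58956830, + strand) read 13.3, 11.9 and 16.3 FPKM on standard diet and 13.3, 12.3 and 12.6 on adenine. The groups overlapped, with a log2 difference of -0.10 (95% interval -0.41 to 0.20, limma adjusted p = 0.543). The row runs 1643 bases past its stem-loop and overlaps Trim17 on the same strand. Hist2h2ac, the next H2A row by mean level, was too low to test and read 0.669, 0.521 and 0 FPKM against 0, 0.156 and 0.207. Hist2h3c2 (chr3:96238108-96239127, - strand) read 2.14, 1.38 and 2.30 FPKM against 0.913, 1.06 and 1.204. Each adenine library was below each standard one, but the difference of -0.50 (SE 0.17) had an adjusted p of 0.0592 and passed only under some settings, among them median-of-ratios scaling (0.0350). Of its 100-base windows 61.6% are shared with other genes. Its neighbour Hist2h3c1 shares 100% of its windows and overlaps Gm20634; it read 1.04 FPKM in standard 1 and at most 0.00033 in each other library, and no difference can be read from it.

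**Figure D2:**
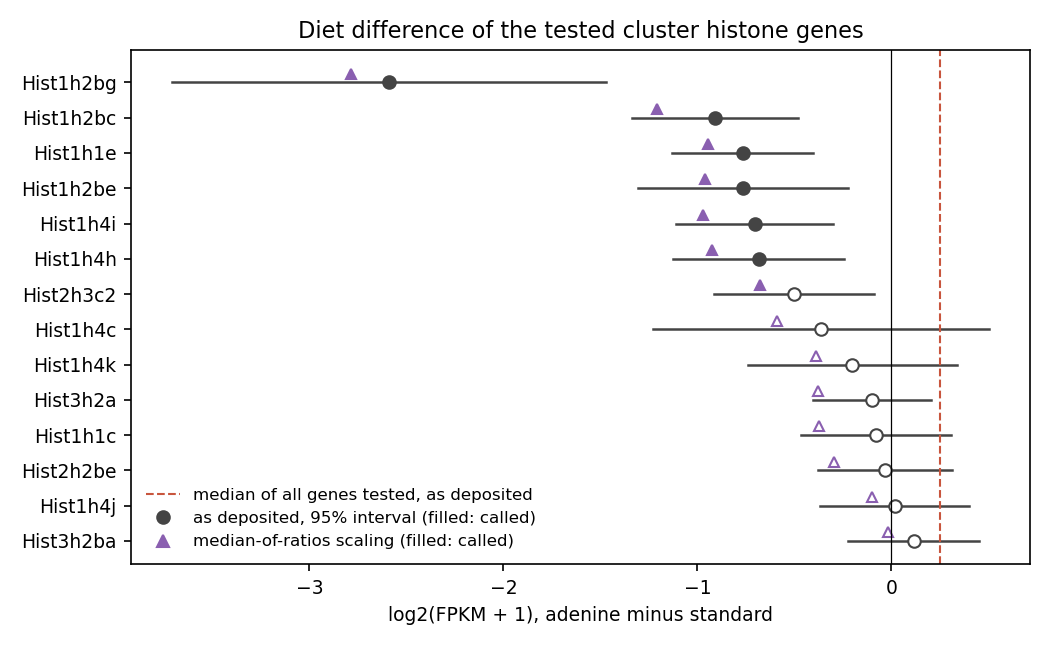
Difference between diets on log2(FPKM + 1) for the 14 tested cluster histone genes: circles with 95% intervals for FPKM as deposited, triangles after median-of-ratios scaling, filled where called. The 6 filled circles lie between -2.59 and -0.68; the dashed line marks the median of all rows tested, 0.25.

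Summed over all rows of a type, H2B and H4 were lower on the adenine diet in every library, while H1 and H2A overlapped. These sums carry no test. H2B summed to 213, 196 and 254 FPKM on standard diet and 100.1, 104 and 145 on adenine, and Hist1h2bc made 89.3% of that. Without Hist1h2bc the remaining H2B rows summed to 20.8, 19.1 and 35.5 against 12.9, 9.53 and 10.7 FPKM, so that the groups stayed apart. H4 summed to 24.5, 24.6 and 30.1 against 16.4, 14.6 and 19.9 FPKM, and remained apart without Hist1h4i.

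The H1 sum was nearly all Hist1h1c (96.8%) and ran from 62.4 to 87.4 FPKM on standard diet and from 63.2 to 76.4 on adenine. Without Hist1h1c the other H1 rows summed to 2.73, 3.01 and 3.78 against 1.44, 1.64 and 1.73 FPKM, with no overlap. The H2A sum, 94.7% Hist3h2a, ran from 12.7 to 16.3 and from 13.3 to 14.6 FPKM. Its other rows summed to 0.669, 0.734 and 0 against 1.26, 0.924 and 0.899 FPKM, the reverse order, at levels of a few fragments. H3 summed to 3.43, 1.99 and 2.30 against 1.67, 2.17 and 1.56 FPKM, overlapping.

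**Figure D3:**
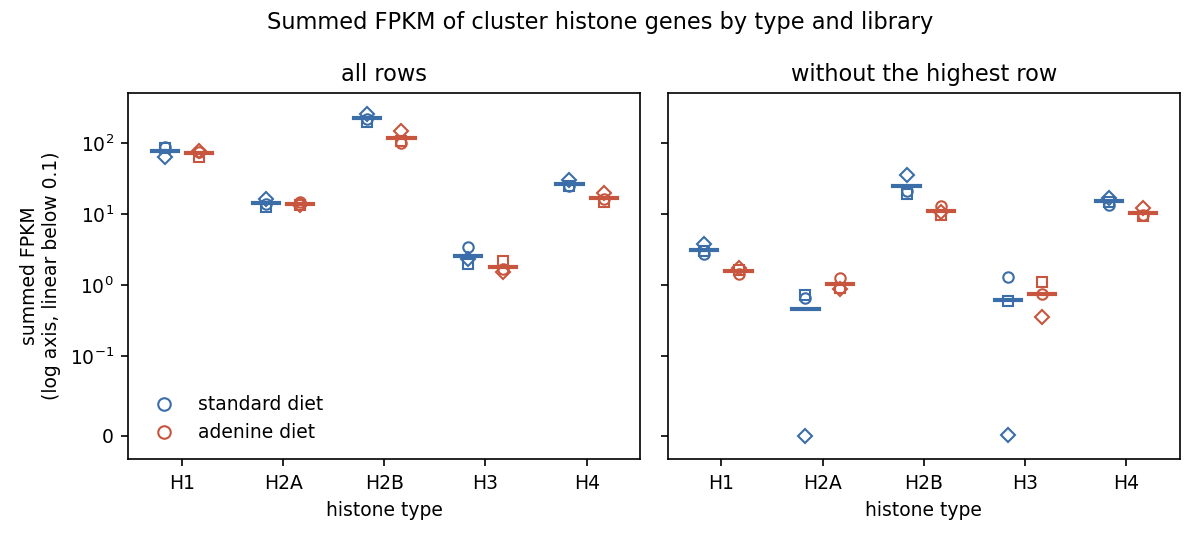
Summed FPKM (log axis, linear below 0.1) by histone type and library, for all rows and without the row of highest mean in each type; bars are means of 3. H2B and H4 stand apart between diets in both panels; H1 does so only without Hist1h1c, and without Hist3h2a the H2A rows are higher on adenine.

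A few rows ran the other way, at the lowest levels the table can show. Hist1h2ac was listed at 0 in the 3 standard libraries and at 0.340, 0.514 and 0.692 FPKM in the adenine ones, Hist1h4f at 0 and then 0.577, 0.290 and 0.408, and Hist1h2bb at 0 and then 0.195, 0.193 and 0.271. Hist1h3d, an H3 gene, read 0, 0.1504 and 0 against 0.247, 0.372 and 0.164 FPKM, also without overlap. No row was listed at 0 in all adenine and above 0 in all standard libraries. The adenine libraries held about 24.5, 25.1 and 18.8 M fragments and the standard ones 20.8, 18.5 and 17.8 M. Of all 70 rows, 42, 37 and 27 were above 0 in the adenine and 31, 31 and 25 in the standard libraries. The part of depth in the rows at 0 on standard diet was not tested. The adenine values of the 3 rows at 0 on standard diet amount to between about 0.944 and 2.84 fragments per library, no fold can be given against 0, and a row with 0 in one diet entered the description only through the other. Among all 19855 rows above 0 in at least 3 libraries, 1.32% had this pattern and 0.0806% the reverse. With no filter on low values these 3 rows passed limma (adjusted p = 0.0141, 0.0149 and 0.0117 for Hist1h2ac, Hist1h4f and Hist1h2bb), beside 18.2% of the 22768 rows then tested that were called higher and 3.65% called lower; the test takes the FPKM as given and does not know the fragment number.

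The threshold of 3 libraries cut through rows of this kind. Just inside it, with Hist1h2ac, Hist1h2bb and Hist1h4f, was Hist1h3e (0.0832, 0 and 0 FPKM against 0.0707, 0 and 0.188). Just outside, in 2 libraries, were 9 rows, of which Hist1h2bh reached 1.21 and 0.332 FPKM in standard 1 and standard 2 and 0 elsewhere. The other 8 had no value above 0.646 FPKM. Of the 20 rows at 0 in every library, 13 were for H2A; these 20 shared a median of 79.8% of their 100-base windows with other genes, against 19.7% for the 32 described rows. Near-identical copies were thus common among the rows listed at 0, and a 0 there need not mean that no mRNA was present.

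The level of the rows was also set beside where each deposited row ends, which can be well short of the annotated transcript: the Hist1h1e row ends 27 bases after the stem-loop and its M21 transcript 1153. The 29 rows that end within 100 bases of the stem-loop had a median of 0.0967 FPKM over all libraries, and 14 were above 0 in at least 3. The 13 rows that run further had a median of 0.699 FPKM, and 11 were above 0 in at least 3. The 26 rows with no match in an annotated transcript had a median of 0.0022 FPKM but included Hist1h2bc. By diet, 3 of the 4 tested rows that end within 100 bases fell (Hist1h2bg, Hist1h1e and Hist1h4h), 2 of the 7 that run further (Hist1h4i and Hist1h2be), and 1 of the 3 with no match (Hist1h2bc). Of all rows tested 6.84% were called lower. Under median-of-ratios scaling the 3 counts were 3, 3 and 1 (15.2% of all rows), and with the replicate block 2, 2 and 1 (7.34%). Differences between these medians or shares were not tested.

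**Figure D4:**
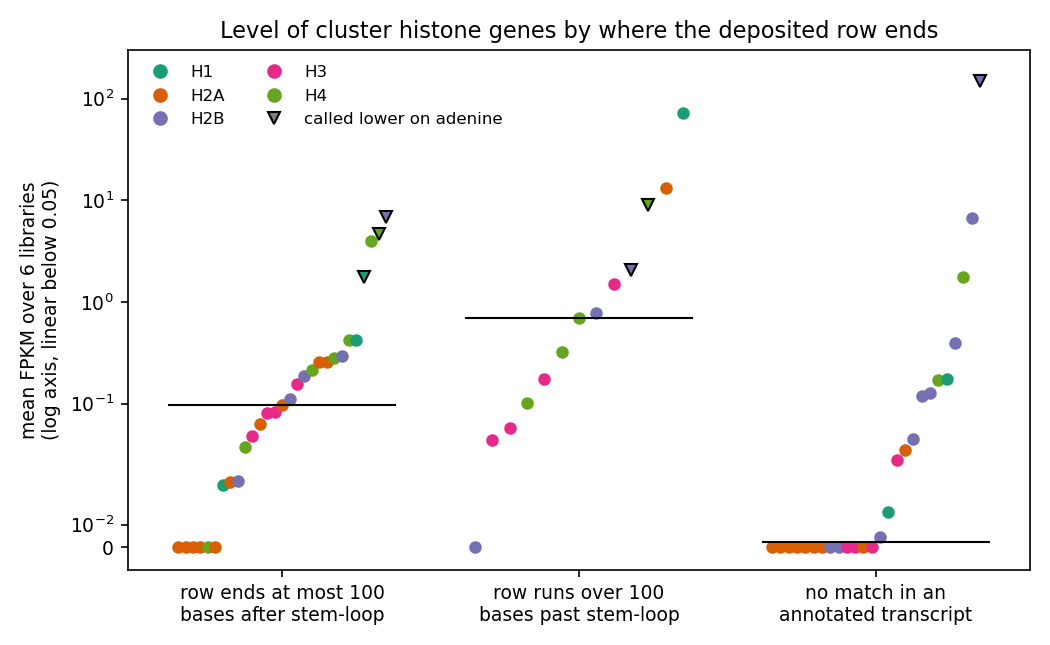
Mean FPKM over 6 libraries (log axis, linear below 0.05) of 68 cluster histone genes by where the deposited row ends relative to the stem-loop; colours are histone types, bars medians, triangles rows called lower on adenine. Medians are 0.0967, 0.699 and 0.0022 FPKM, with Hist1h1c and Hist1h2bc, in that order, the highest points of the last 2 groups.

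Genes that act with the histones in S phase mostly moved upward. Of 22 genes of DNA replication and S phase tested, 18 rose and 1 fell, with a median difference of 0.88, beside 29.7% and 6.84% of all rows tested; under median-of-ratios scaling 13 rose and 1 fell, beside 16.8% and 15.2%. Mcm5, a subunit of the replicative helicase, averaged 1.75 ± 0.108 FPKM on standard and 7.55 ± 2.91 on adenine diet (SD, n = 3), 4.31-fold higher (limma adjusted p = 0.00762). E2f1, a transcription factor of S phase entry, rose 3.88-fold from 0.932 FPKM (0.00762) and Mcm6 1.93-fold from 10.6 FPKM (0.00880). In these libraries, then, 18 of 22 S phase genes and none of 14 cluster histone genes were called higher. Without standard 1, standard 2, standard 3, adenine 1 or adenine 2 the S phase genes called higher numbered 9, 8, 7, 11 and 8. Over all 15431 rows tested, these fits called 2391, 2516, 2341, 3026 and 1833 higher.

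Histone chaperones and deposition factors showed 11 of 16 genes higher and none lower (median 0.49; 29.7% of all rows were higher), and 5 higher under median-of-ratios scaling (16.8% of all rows). Leaving out standard 1, standard 2, standard 3, adenine 1 or adenine 2 left 3, 3, 2, 6 and 1 higher. The same fits called 2391, 2516, 2341, 3026 and 1833 of all 15431 rows higher. Ipo4, an importin that carries new histones into the nucleus, rose 1.80-fold (18.1 ± 0.490 to 32.6 ± 1.01 FPKM, SD, n = 3; limma adjusted p = 0.00332). Chaf1b, a subunit of the replication-coupled chromatin assembly factor, rose 4.72-fold from 0.588 FPKM (0.0128), and Hjurp, the chaperone of the centromeric histone, 1.82-fold from 19.2 FPKM (0.0162). Factors that make the histone mRNA itself moved less. Of 14 genes for its transcription and processing, 5 were called higher as deposited and none under median-of-ratios scaling, with medians of 0.34 and 0.07; the shares of all rows were 29.7% and 16.8%, so the first count is near the background. Without standard 1, standard 2, standard 3, adenine 1 or adenine 2 there were 1, 3, 1, 2 and 0. The counts over all rows in these fits are those given for the chaperones. Slbp, which binds the stem-loops shown above, averaged 15.1 ± 0.921 against 20.8 ± 0.532 FPKM (SD, n = 3), a difference of 0.44 (limma adjusted p = 0.0126) that was 0.16 (0.179) after that scaling. Srrt and Cpsf1 behaved alike in this, at 0.37 and 0.43 as deposited and 0.09 and 0.15 scaled.

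The replacement histones, which are made outside S phase as well, gave 4 of 10 tested genes higher and none lower (median 0.36), close to the 29.7% of all rows called higher and their median of 0.25. Cenpa, the centromeric H3, rose 3.53-fold from 1.53 ± 0.144 to 5.41 ± 2.12 FPKM (SD, n = 3; limma adjusted p = 0.0108). H2afy, the gene for macroH2A1, rose 1.54-fold from 45.0 FPKM (0.0117) and was not called after median-of-ratios scaling (0.062). H2afx, the H2A that is phosphorylated at DNA breaks and whose mRNA can end in a stem-loop too, rose 2.07-fold from 3.77 FPKM (0.0143). The abundant H3f3a, a gene for H3.3, averaged 291 against 326 FPKM (0.399). Median-of-ratios scaling left 3 higher and made 1 lower (H2afj), beside 16.8% and 15.2% of all rows. Without adenine 2 there was 1 higher, beside 1833 of the 15431 rows tested.

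**Figure D5:**
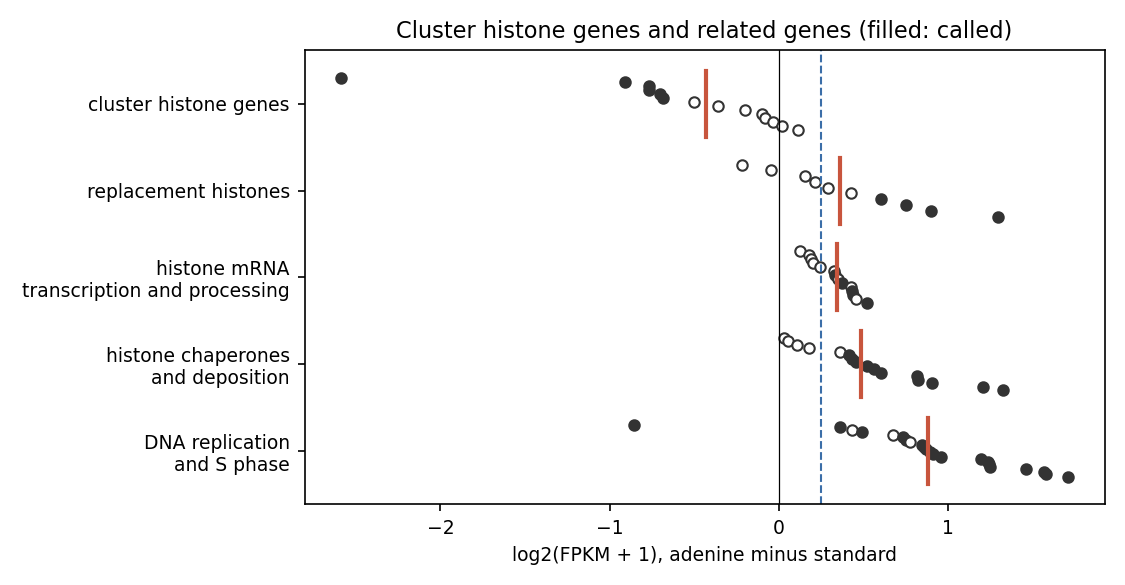
Difference between diets on log2(FPKM + 1) for the tested cluster histone genes and 4 lists of related genes; filled points passed limma, red bars are list medians and the dashed line is the median of all rows, 0.25. The histone median lies at -0.43 and that of the S phase list at 0.88.

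Other RNAs without a poly(A) tail had negative differences as well, and none passed as deposited. Rn7sk, the 7SK RNA, read 2960, 1142 and 1130 FPKM on standard diet and 834, 706 and 641 on adenine. The groups did not overlap and standard 1 was far above the rest, with a limma adjusted p of 0.0692. Rmrp read 981, 434 and 452 FPKM against 452, 325 and 236, and Rpph1 146, 63.1 and 62.9 against 62.3, 52.2 and 67.1. Both were also highest in standard 1, and their other standard libraries overlapped the adenine ones. Over the 4 testable RNAs of this list the median difference was -0.67; 2 were called lower with the replicate block (Rn7sk, adjusted p = 0.0400, and Rmrp, 0.0272) and 2 under median-of-ratios scaling (Rn7sk, 0.0403, and Scarna2, 0.0386). Terc, Rny1, Rny3, Rnu11 and Rnu12 were listed at 0 throughout. How RNA was selected beyond purification from total RNA is not given in the sources used here. What part the capture of tailless RNA has in the histone differences was not tested.

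The make-up of the tissue moved with the diet as well. Of 11 leukocyte markers 7 rose and none fell, where 29.7% of all rows were called higher, and their summed level went from 92.9 to 158 FPKM on standard to 691 to 1872 on adenine diet; Itgam, an integrin of myeloid cells, rose 18.8-fold from 0.707 FPKM (limma adjusted p = 0.00329). Of 11 kidney markers 4 fell and 2 rose, beside 6.84% and 29.7% of all rows: Slc34a1, the phosphate transporter of the proximal tubule, fell 2.43-fold from 1232 ± 245 to 506 ± 222 FPKM (SD, n = 3; 0.0287), and Nphs1, which codes for nephrin of the podocyte slit diaphragm, rose 1.86-fold from 5.29 FPKM (0.0124). Median-of-ratios scaling gave 1 higher and 5 lower kidney markers, beside 16.8% and 15.2% of all rows. Without standard 1, standard 2, standard 3, adenine 1 or adenine 2 the kidney markers called lower numbered 1, 1, 2, 2 and 1. Over all 15431 rows tested, these fits called 403, 350, 411, 609 and 220 lower. None of 5 testable red cell markers was called, and their sum ranged from 8.97 to 69.2 FPKM on standard and from 24.4 to 141 on adenine diet. The part of these shifts in the histone differences was not tested.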

How the data were processed

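Total RNA of whole kidneys (1 µg) was made into libraries and sequenced as pairs of 100-base reads, per the labels' protocols. Per the submitters' processing notes, bcl2fastq 2.0, TopHat and Cufflinks 2.1.1 were used with mm10/GRCm38; the deposited values are FPKM per gene, and the annotation is not given in the sources used here. A table with 6 columns of other samples was not used here.

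FPKM are not counts, so limma 3.58.1 (R 4.3.3, eBayes with trend) was fitted to log2(FPKM + 1) for rows with a mean of at least 0.5 FPKM, with all 6 libraries and diet as the only term; a fold is a ratio of mean FPKM. On simulated data with this comparison's 15431 rows it recovered 69 of 100 2-fold and 89 of 100 4-fold changes, with 9 false calls. The changed rows were drawn only from the more abundant ones, and the changes were added on the scale of log2(FPKM + 1). This recovery therefore does not cover the tested histone rows of lowest level. Values near 0 step by what 1 fragment is worth, which gave the depths (69.1% to 81.3% of low values within 0.15 of a whole fragment). For the histone rows 53.5% of 114 values were, so their fragment numbers are approximate and no count test was run.

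Libraries with the same replicate number in both diets deviated together (r = 0.257, 0.143 and 0.181; other pairs -0.187 to 0.0376). The labels do not say what the number marks, so the pairing rests on the data.

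The members and lists were chosen with earlier results of these data known. Rows were described one by one if called, if among the 3 highest of their type, or with a mean of at least 2 FPKM, and in each list the 3 rises and 3 falls of smallest p; Hist1h1b and the low rows were added after their values were seen. Alternatives were pseudocounts of 0.5 and 0.1, no filter or a mean of at least 5 FPKM, median-of-ratios and quantile scaling, no variance trend, the block, and each library left out. A gene of the S phase list and one of the kidney markers are counted in their lists but not reported here.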

Additional observations from a re-analysis of the deposited data

How the results depend on the processing

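Over all genes tested, 4581 rows were called higher and 1056 lower; median-of-ratios scaling gave 2598 and 2344, quantile normalization 2140 and 2237, and the replicate block with median-of-ratios scaling 2673 and 2589. Leaving out one library gave 1833 to 5480 higher and 220 to 1598 lower. Cluster histone rows called lower numbered 6, 5 with the replicate block, 8 with the block and median-of-ratios scaling, 9 after quantile normalization and 3 of the 6 rows with a mean of at least 5 FPKM; leaving out one library gave 1 to 6. Rows called higher numbered 0, and 3 without a filter. The block ended the call of Hist1h4h and of no other named histone row. In the 4 lists of related genes 38 were called higher and 1 lower; 21 and 2 after median-of-ratios scaling, 18 and 2 after quantile normalization, 22 higher with the block and that scaling, and 10 to 44 higher leaving out one library. Leaving out one library, small differences turned positive in Hist2h2be (-0.14 to 0.0545; 0.0053 without adenine 2 and 0.0325 without adenine 3), Hist3h2a (-0.20 to 0.0137, the latter without standard 3) and Hist1h1c (-0.24 to 0.019; 0.0083 without adenine 2). The adenine minus standard differences of summed FPKM under median-of-ratios scaling were -21.3 for H1 (-6.25 as deposited), -3.54 for H2A (-0.54), -140.1 for H2B (-104.7) and -14.0 for H4 (-9.45). As deposited but without the highest row of the type, they were -14.1 for H2B, 0.11 for H3 (-0.77 with all rows) and -4.68 for H4. Of 160 fits of the named rows under alternatives, 129 kept direction and side of the threshold. The cause of these changes was not tested. With fewer than about 10 fragments per library, as in the adenine libraries for Hist1h2bg, the size of a change is only coarsely known.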
